A study of Mus musculus with 36 samples.

Results

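The genes described here encode the mouse MHC class II molecules and the proteins that go with them: the chains H2-Aa, H2-Ab1, H2-Eb1 and H2-Eb2, the invariant chain Cd74 and the regulator Ciita. They were taken as the rows that carry these 6 gene symbols, out of 988 genes on a targeted panel for immune and cancer genes, and all 6 were present in both count tables of the study. The study set out to ask, per its title, how mast cells act on colorectal tumours during their early steps. It measured RNA of mouse colon lesions and tumours made with azoxymethane (AOM, a carcinogen that acts on the colon) in 25 libraries, and of MC-38 tumours in 9 libraries.

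All mice of the AOM samples were C57BL/6, and all of them received AOM by intraperitoneal injection. The sash tumours (n = 5) came from mice with the Kit "sash" mutation (cKitw-sh) and the wild-type tumours (n = 5) from mice with intact Kit, both at 32 weeks of age, after 6 AOM injections of 10 mg/kg per week and a wait of 18 weeks. The sash lesions (n = 3) and wild-type lesions (n = 3) were preneoplastic lesions at 14 weeks of age, after 3 injections over 3 weeks and a further 3 weeks. Another 3 groups were wild-type mice of 14 weeks, also after 3 AOM injections over 3 weeks and a further 3 weeks. They had cromolyn during the 3 weeks after AOM (n = 3), cromolyn together with AOM for 3 weeks (n = 3) or AOM only (n = 3). Cromolyn is a drug used to hold back mast cell degranulation. The MC-38 tumours grew in sash hosts (n = 5) or wild-type hosts (n = 4), with saline as the labelled treatment and no age given; the sash hosts carry the numbers 1, 2, 4, 5 and 6 and the wild-type hosts 1, 3, 4 and 5, and values of single libraries are given in the order of these numbers. MC-38 is a mouse colon carcinoma cell line, so the tumour cells of both MC-38 groups are of 1 line and the genotype is that of the host. The sash mutation is a rearrangement in the control region of Kit; such mice lack mast cells, but Kit is also used by other cells, so the mutation is not a mast cell deletion alone.

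MHC class II molecules are pairs of an alpha and a beta chain that hold peptides from outside proteins at the surface of B cells, dendritic cells and macrophages, where CD4 T cells read them. The invariant chain CD74 fills the groove of new class II pairs and guides them to the compartment where peptide is loaded. CIITA, the class II transactivator, does not bind DNA itself but joins factors at the X and Y boxes of class II promoters, and interferon gamma can switch it on in cells that otherwise lack class II.

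The AOM libraries held 449880 to 1264354 counts with 877 to 922 of the genes detected, and the MC-38 libraries 480136 to 986415 counts with 815 to 863 genes. Summed, the 6 genes made up 0.474 to 5.25% of all counts in AOM libraries, and 5.68 to 10.9% in the MC-38 ones. Levels are given as CPM (counts relative to the library total, after TMM scaling) with SD. Each gene is read through an amplicon of its own, so levels are compared between samples and not between genes, and the AOM and MC-38 tables were scaled separately. Kit itself ranged over 49.7 to 99.3 CPM in sash tumours and 95.3 to 476 CPM in wild-type tumours, and over 114 to 143 CPM in sash lesions and 334 to 509 CPM in wild-type lesions. Cpa3 and Ms4a2, which mark mast cells, were at 0 in every sash lesion, with 1.51 to 22.6 CPM and 1.77 to 4.54 CPM in wild-type lesions. In sash tumours none of the 6 listed mast cell genes on the panel was at 0 in every library. Their summed level was 66.2 to 120 CPM there, against 181 to 561 CPM in wild-type tumours. The labels do not say that the samples of a group came from separate mice, and every p-value here speaks to the spread among these samples alone. In bulk tissue, fewer cells of a type and less RNA per cell cannot be told apart.

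H2-Aa, H2-Ab1, H2-Eb1 and H2-Eb2 lie side by side on chromosome 17, in the order H2-Ab1, H2-Aa, H2-Eb1, H2-Eb2, between H2-Ob and Btnl2 (GRCm38.p6). The RefSeq table of promoter windows, 250 bases before to 50 after the start of a gene, held 3 of the 6 genes. Their sequences are shown as a description, and a relation of sequence to level was not tested. Capitals mark matches, on either strand, to ACNGATG (the core of the X box) and to ATTGG (the Y box, a reversed CCAAT).
H2-Aa promoter, chr17:34287774-34288073, minus strand: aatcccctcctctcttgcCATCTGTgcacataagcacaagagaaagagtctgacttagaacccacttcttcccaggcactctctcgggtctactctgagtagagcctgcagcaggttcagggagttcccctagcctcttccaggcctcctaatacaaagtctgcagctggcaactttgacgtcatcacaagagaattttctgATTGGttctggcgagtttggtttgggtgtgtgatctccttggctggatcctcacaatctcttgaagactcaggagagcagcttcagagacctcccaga
H2-Eb1 promoter, chr17:34305617-34305916, plus strand: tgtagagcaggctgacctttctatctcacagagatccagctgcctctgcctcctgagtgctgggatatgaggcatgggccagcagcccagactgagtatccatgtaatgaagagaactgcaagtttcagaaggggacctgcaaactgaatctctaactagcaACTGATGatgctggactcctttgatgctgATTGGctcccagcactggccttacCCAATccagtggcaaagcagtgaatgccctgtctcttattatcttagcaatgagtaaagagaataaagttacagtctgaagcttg
H2-Eb2 promoter, chr17:34325425-34325724, plus strand: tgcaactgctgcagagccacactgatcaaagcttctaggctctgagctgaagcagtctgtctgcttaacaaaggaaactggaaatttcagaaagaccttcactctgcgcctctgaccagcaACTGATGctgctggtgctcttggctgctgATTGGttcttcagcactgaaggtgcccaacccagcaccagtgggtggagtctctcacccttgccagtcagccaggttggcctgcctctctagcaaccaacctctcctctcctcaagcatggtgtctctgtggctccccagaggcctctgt
The H2-Eb1 and H2-Eb2 windows both held an X core followed by a Y box on the same strand, with 22 bases between them. In H2-Eb1 the X core began 88 bases before the start and in H2-Eb2 129 bases before it. The H2-Aa window held a Y box 48 bases before the start. Its only match to the X core letters was on the other strand, 232 bases before the start. An X box with other letters would be missed by this search, so H2-Aa is not shown to lack one. Over all 32851 windows, 9.85% held the X core, 37.4% the Y box, and 0.259% the X core followed by the Y box at 5 to 40 bases. These matches describe letters, not binding. The H2-Eb1 and H2-Eb2 transcripts were 78.8% identical over 770 aligned bases, with a longest identical run of 44 bases, and H2-Ab1 and H2-Eb1 74.5% over 772 bases, so reads of the beta chain genes may have been shared in the counting and their values are uncertain to that extent.

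Across the AOM groups the 6 genes were highest in lesions or in the cromolyn experiment and lowest in tumours. H2-Ab1, the beta chain of the I-A molecule, averaged 5297 ± 716 CPM in sash tumours, 3719.5 ± 2038 CPM in wild-type tumours, 14462 ± 2301 CPM in sash lesions, 8028 ± 2514 CPM in wild-type lesions, 12339 ± 568 CPM with cromolyn after AOM, 18373 ± 3550.1 CPM with cromolyn together with AOM and 11208 ± 2073 CPM with AOM only. H2-Aa, the alpha chain of I-A, averaged 2862 ± 274 CPM in sash tumours, 2272 ± 1423 CPM in wild-type tumours, 12832 ± 1619 CPM in sash lesions, 5427 ± 2222 CPM in wild-type lesions, 5635 ± 775 CPM with cromolyn after AOM, 7857 ± 1180.3 CPM with cromolyn together with AOM and 5191 ± 324 CPM with AOM only. The highest mean thus differed between the chains of I-A: it was in the group given cromolyn together with AOM for H2-Ab1 and in sash lesions for H2-Aa. H2-Eb1, the beta chain of the I-E molecule, averaged 1713 ± 208 CPM in sash tumours, 1260.1 ± 622 CPM in wild-type tumours, 3198 ± 651 CPM in sash lesions, 2436 ± 758 CPM in wild-type lesions, 2188 ± 301 CPM with cromolyn after AOM, 2659 ± 157 CPM with cromolyn together with AOM and 1761 ± 192 CPM with AOM only. Mice of the C57BL/6 strain make no I-E alpha chain, so this beta chain has no partner there.

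H2-Eb2, a further class II beta gene, was low and followed another order. It averaged 7.34 ± 1.85 CPM in sash tumours, 29.6 ± 52.8 CPM in wild-type tumours, 21.4 ± 3.51 CPM in sash lesions, 192 ± 103 CPM in wild-type lesions, 102 ± 71.2 CPM with cromolyn after AOM, 88.7 ± 56.4 CPM with cromolyn together with AOM and 33.3 ± 19.2 CPM with AOM only. Its highest group mean was 26.2 times its lowest, against 2.54 times for H2-Eb1. Cd74 averaged 6081 ± 1621 CPM in sash tumours, 4805 ± 3073 CPM in wild-type tumours, 17802 ± 2819 CPM in sash lesions, 9365 ± 3472 CPM in wild-type lesions, 12769.9 ± 2422 CPM with cromolyn after AOM, 17558 ± 2099 CPM with cromolyn together with AOM and 10699 ± 854 CPM with AOM only. Ciita averaged 76.8 ± 35.4 CPM in sash tumours, 72.7 ± 68.3 CPM in wild-type tumours, 252 ± 18.8 CPM in sash lesions, 172 ± 62.3 CPM in wild-type lesions, 221 ± 56.8 CPM with cromolyn after AOM, 309 ± 70.0 CPM with cromolyn together with AOM and 151 ± 23.2 CPM with AOM only. Neighbouring groups in the order of means overlapped in all 6 pairs for H2-Ab1, H2-Eb1, Cd74 and Ciita, in 5 of 6 for H2-Eb2 and in 3 of 6 for H2-Aa, so most steps in these orders are within the spread of the libraries.

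**Figure D1:**
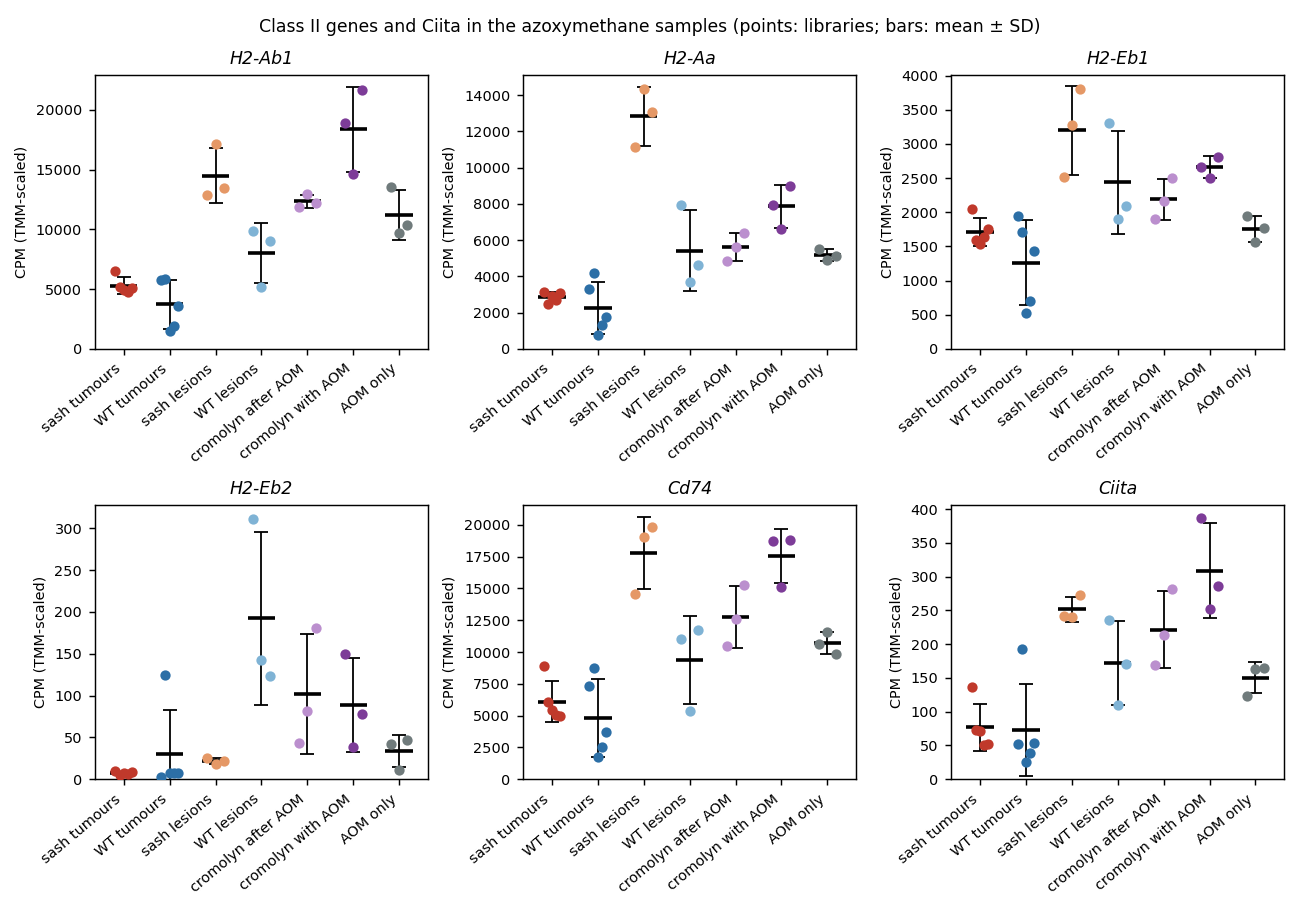
CPM of each of the 6 genes (vertical axis) in the 7 AOM groups; points are libraries and bars are mean ± SD. H2-Eb2 stands high in wild-type lesions, with 123 to 311 CPM, while the other 5 genes stand highest in sash lesions or in the group given cromolyn together with AOM.

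In the lesions, which ask how the sash mutation relates to the early stage, H2-Eb2 fell in sash mice while the other 5 genes had higher means there, none of them past the test. H2-Eb2 had 25.1, 18.1 and 21.2 CPM in sash lesions (14, 13 and 18 counts), against 311, 142 and 123 CPM in wild-type lesions (176, 94 and 131 counts). The groups did not overlap, and the lowest wild-type lesion lay far above the highest sash lesion. The difference was −3.19 on the log2 scale (SE 0.48, 95% interval −4.28 to −2.11, adjusted p = 0.0144, edgeR quasi-likelihood test with Benjamini-Hochberg adjustment). It was the 1 member called, on a background of 2.84% of 775 genes called in either direction and 2.32% called lower. The call ended when all AOM libraries were fitted together (−2.61 to −3.44 over 13 alternatives, adjusted p = 0.0860 in that fit) and without sash lesion 2 (adjusted p = 0.0537).

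H2-Aa had 11116, 14331 and 13050.1 CPM in sash lesions, against 7935, 3704 and 4643 CPM in wild-type lesions. Every sash lesion was above every wild-type lesion, and the difference of 1.21 (SE 0.30) had an adjusted p of 0.0759. H2-Ab1 had 12843, 17096 and 13448 CPM in sash lesions, against 9901, 5171 and 9011 CPM in wild-type lesions, a difference of 0.82 (SE 0.26, adjusted p = 0.136). Cd74 had 14579, 19012 and 19814 CPM in sash lesions, against 11020.4, 5375 and 11699 CPM in wild-type lesions, a difference of 0.91 (SE 0.30, adjusted p = 0.145). These genes again did not overlap between the genotypes, and wild-type lesion 2 was the lowest library for each. Ciita had 242, 240.3 and 274 CPM in sash lesions, against 235, 111 and 171 CPM in wild-type lesions, a difference of 0.52 (SE 0.32, adjusted p = 0.471) in which the groups came within a few CPM of each other. H2-Eb1 ranged over 2511 to 3806 CPM in sash lesions and 1907 to 3305 CPM in wild-type lesions and overlapped (0.37, SE 0.27, adjusted p = 0.578). In all, 4 of the 6 lay higher without overlap, as did 10.1% of all genes, and 1 lay lower, as did 14.2%. The median difference of the 6 genes was 0.67, beside 0.05 over all genes. H2-Aa passed with DESeq2 (adjusted p = 0.00382), with no low-count filter (0.0401) and without wild-type lesion 1 (0.0144). Same-numbered lesions had r = 0.39, 0.16 and 0.52 over genes, but sash lesion 2 had r = 0.20 with wild-type lesion 1. With the replicate number as a block in edgeR, H2-Aa (1.29, adjusted p = 0.0133), Cd74 (0.97, 0.0342) and H2-Eb2 (−3.06, 0.000221) passed. This pairing was taken from the same data and not from the labels, so the calls with the block are no separate support.

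The B cell genes moved with H2-Eb2. Of 9 on the panel, 8 were tested and all 8 had lower values in sash lesions, with a median of −2.97. Ms4a1 (−4.02, SE 0.77, adjusted p = 0.0326) and Cd22 (−3.04, SE 0.65, 0.0476), surface proteins of B cells, fell. The summed level of the list was 365, 203 and 97.9 CPM in sash lesions, against 3142, 1091 and 867 CPM in wild-type lesions, and no gene of the list was at 0 throughout a group. The part of the B cell genes in the H2-Eb2 result was not tested. Genes of T cells (7 tested, 0 passed, median −0.41), macrophages and monocytes (8 tested, 0 passed, median −0.11) and dendritic cells (3 tested, 0 passed, median 0.28) had summed levels that overlapped between the genotypes: 321 to 492 CPM in sash and 377 to 1004 CPM in wild-type lesions for T cells, 1249 to 1794 and 1218 to 1444 CPM for macrophages and monocytes, and 85.9 to 151 and 63.6 to 157 CPM for dendritic cells. Of the genes that feed class II with peptide, 7 were tested and 0 passed (median −0.00). H2-DMa, which helps peptides exchange, was at 1.25 with an adjusted p of 0.185. Along the interferon gamma route to Ciita, 8 of 9 tested genes were above 0 with a median of 0.18 and 0 passed. Of 6 tested class I genes 1 passed: B2m, the light chain of class I, fell by 0.91 (SE 0.18, adjusted p = 0.0401).

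**Figure D2:**
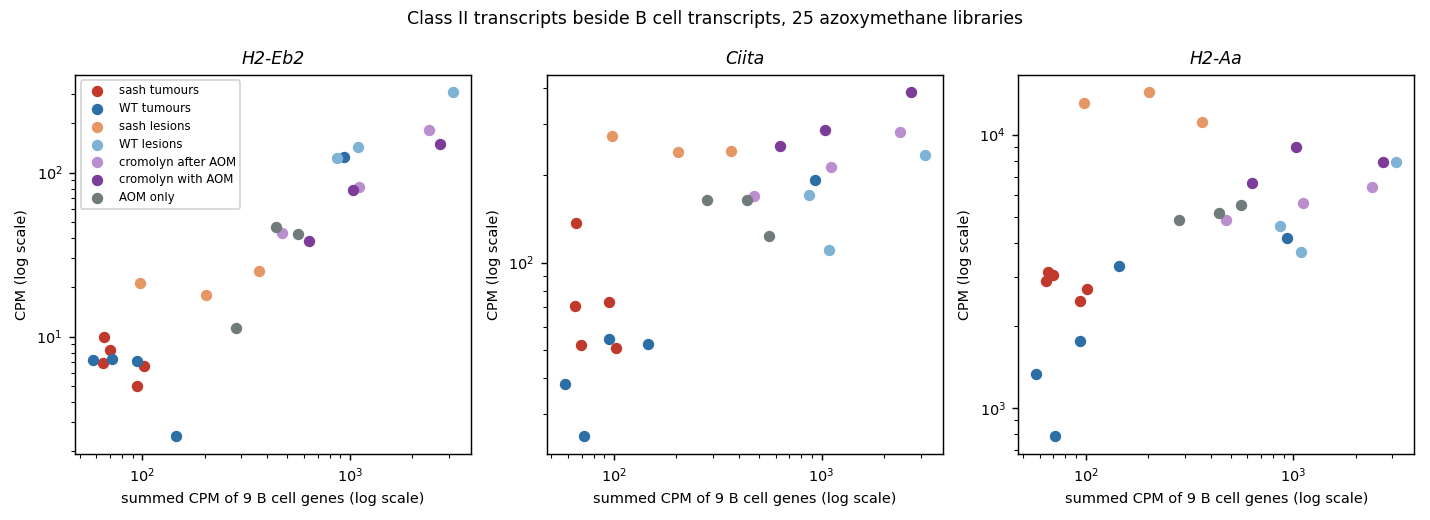
CPM of H2-Eb2, Ciita and H2-Aa (vertical axes, log scale) against the summed CPM of 9 B cell genes (horizontal axis, log scale), 1 point per AOM library, coloured by group. The wild-type lesions lie at the upper right for H2-Eb2, with 867 to 3142 summed CPM, and the sash lesions at 97.9 to 365 summed CPM lie below them, whereas for H2-Aa the sash lesions lie above all wild-type lesions.

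In the tumours no member differed between the genotypes beyond the spread of the libraries. H2-Ab1 had 6540.0, 5165, 4937, 4726 and 5115 CPM in sash tumours, against 5738, 5816, 1537, 1883 and 3624 CPM in wild-type tumours. The sash tumours lay close together and inside the range of the wild-type tumours except for sash tumour 1, and wild-type tumours 3 and 4 were low. The same libraries set the spread of the other genes: H2-Aa ranged over 2467 to 3147 CPM in sash tumours and 787 to 4194 CPM in wild-type tumours, and Cd74 over 4978 to 8878 CPM and 1728 to 8718 CPM. Ciita ranged over 50.6 to 137 CPM in sash tumours and 25.2 to 193 CPM in wild-type tumours, and H2-Eb1 over 1531 to 2053 CPM and 523 to 1940.1 CPM. All 6 genes overlapped, where 3.89% of all genes lay higher in sash tumours without overlap and 1.51% lower. The differences were 0.48 for H2-Ab1 (SE 0.35, adjusted p = 0.480), 0.30 for H2-Aa (SE 0.38, 0.697), 0.42 for H2-Eb1 (SE 0.32, 0.510), 0.31 for Cd74 (SE 0.41, 0.715) and 0.05 for Ciita (SE 0.54, 0.979). Their median was 0.31, beside −0.04 over all genes. None of the 797 genes tested passed (0% called) in edgeR, 159 had an unadjusted p below 0.05, 0 of them members, and DESeq2 called 82, none of them a member.

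H2-Eb2 was too low in the tumours for the test. It had 13, 6, 9, 8 and 9 counts in sash tumours, against 3, 88, 7, 7 and 6 counts in wild-type tumours. All but 1 library lay at 13 counts or fewer, and wild-type tumour 2 stood apart. Pooled over libraries, H2-Eb2 had 45 counts in sash tumours and 111 in wild-type tumours, a ratio of 0.317 (95% interval 0.219 to 0.452, counting error only). Without wild-type tumour 2 the counts were 45 and 23 and the ratio 1.32 (0.782 to 2.28), so the direction rested on that library. In wild-type tumour 2 the B cell genes summed to 933 CPM, where sash tumours had 64.6 to 102 CPM and the remaining wild-type tumours 57.9 to 145 CPM, and the part of this in its H2-Eb2 level was not tested. The interferon gamma route had 9 genes tested, 1 above 0 and 0 passed (median −0.33), and the class I genes 6 tested, 0 above 0 and 0 passed (median −0.41).

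Between stages 5 of the 6 genes fell in sash tumours and 4 of the 6 in wild-type tumours, against the lesions of the same genotype. Age, number of AOM injections and the tissue taken differ between the stages as well and cannot be told apart from the stage. The count in sash mice stood on a background of 47.5% of 848 genes called in either direction and 23.6% called lower. H2-Aa had 2467 to 3147 CPM in sash tumours against 11116 to 14331 CPM in sash lesions. On the log2 scale the differences were −2.17 for H2-Aa (SE 0.39, adjusted p = 0.000509), −1.73 for Ciita (SE 0.52, 0.0136), −1.56 for Cd74 (SE 0.42, 0.00730), −1.46 for H2-Ab1 (SE 0.36, 0.00426) and −0.91 for H2-Eb1 (SE 0.34, 0.0364). H2-Eb2 was at −1.54 (SE 0.96, adjusted p = 0.191), with 4.97 to 9.92 CPM in sash tumours and 18.1 to 25.1 CPM in sash lesions. All 6 lay lower in every sash tumour than in every sash lesion, as did 25.1% of all genes. The median of the 6 was −1.55, beside 0.02 over all genes. H2-Ab1, H2-Aa, Cd74 and Ciita passed in 15 of 15 alternatives. H2-Eb1 passed in 6 of 15 and was lost without sash tumour 2, 3, 4 or 5 or sash lesion 2 or 3, with library totals, with scaling to Rpl13a and with the replicate block, its adjusted p then reaching at most 0.125.

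The count in wild-type mice stood on a background of 37.0% of 848 genes called and 17.6% called lower. H2-Eb2 had 2.46, 124, 7.35, 7.24 and 7.09 CPM in wild-type tumours, against 311, 142 and 123 CPM in wild-type lesions. Of the tumours 4 lay far below the lesions and wild-type tumour 2 lay level with the lowest of them. H2-Eb2 fell by 2.76 (SE 0.87, adjusted p = 0.0228), H2-Aa by 1.30 (SE 0.39, 0.0191), H2-Ab1 by 1.15 (SE 0.36, 0.0225) and H2-Eb1 by 0.99 (SE 0.34, 0.0318). Cd74 (−1.002, SE 0.42, adjusted p = 0.0732) and Ciita (−1.29, SE 0.53, 0.0648) did not pass. All 6 overlapped between the stages, where 11.7% of all genes lay lower without overlap, and their median was −1.22, beside −0.00 over all genes. These calls depended on single libraries. Without wild-type tumour 2 all 6 passed (Cd74 −1.34, adjusted p = 0.0152, Ciita −2.06, 0.000839, H2-Eb2 −5.12, 4.93e-06), and without wild-type lesion 1 none did (adjusted p 0.111 to 0.205). Without wild-type lesion 3 H2-Ab1 (0.0740) and H2-Eb1 (0.0501) were lost, without wild-type tumour 3 H2-Eb1 (0.0581) and H2-Eb2 (0.0507), and without wild-type tumour 4 H2-Eb1 (0.0598). With scaling to Rpl13a 0 members passed and with library totals 1, while DESeq2 added Ciita (0.0391).

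Genes of other lists were also called between the stages. Of all genes, 23.6% were called lower in sash mice and 17.6% in wild-type mice. The counts below for T cells in sash mice and for the interferon gamma route in wild-type mice do not stand out from these shares. Class I fell with class II: of 6 tested genes 4 fell in sash mice (median −1.14), among them B2m (−1.15, SE 0.22, adjusted p = 0.000771) and H2-K1 (−0.92, SE 0.28, 0.0133), and 3 in wild-type mice (median −0.84), B2m by 1.93 (SE 0.22, 2.06e-05). On the interferon gamma route Irf1, a transcription factor that acts on the Ciita promoter, fell by 1.80 in sash mice (SE 0.18, adjusted p = 1.01e-05) and by 1.13 in wild-type mice (SE 0.18, 0.000405), and 5 of 9 genes fell in sash mice (median −0.86) against 2 that fell and 1 that rose of 9 in wild-type mice (median −0.46). Of the loading genes Lgmn, a protease of the peptide compartment, rose in both (1.21, SE 0.34, adjusted p = 0.0105 in sash mice and 1.36, SE 0.35, 0.00809 in wild-type mice), while Ctss, the protease that trims the invariant chain, fell by 1.44 in sash mice (SE 0.23, 0.000206). The B cell genes fell in wild-type mice (7 of 8, median −2.96), with summed levels of 57.9 to 933 CPM in wild-type tumours and 867 to 3142 CPM in wild-type lesions. In sash mice 0 of 8 passed (median −2.67), with 64.6 to 102 CPM in sash tumours and 97.9 to 365 CPM in sash lesions. Of the T cell genes 3 of 7 fell in wild-type mice (median −1.06) and 1 of 7 in sash mice (median −0.56), with summed levels of 212 to 268 CPM in sash tumours, 95.5 to 562 CPM in wild-type tumours, 321 to 492 CPM in sash lesions and 377 to 1004 CPM in wild-type lesions. Of the macrophage and monocyte genes 4 of 8 rose and 1 fell in sash mice (median 1.24), where 23.9% of all genes were called higher, and 2 of 8 rose and 1 fell in wild-type mice (median 0.73), where 19.5% were called higher. Their summed levels were 2793 to 3767 CPM in sash tumours, 1438 to 3239 CPM in wild-type tumours, 1249 to 1794 CPM in sash lesions and 1218 to 1444 CPM in wild-type lesions. The part of these cell types in the class II result was not tested.

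Whether the genotype effect differed between tumours and lesions was tested with the interaction of genotype and stage. None of the 848 genes passed (0% called) in edgeR, 128 had an unadjusted p below 0.05, and DESeq2 called 20; 0 members were among either. H2-Eb2 was at 1.22 (SE 1.33, adjusted p = 0.687), H2-Aa at −0.88 (SE 0.57, 0.479), Cd74 at −0.56 (SE 0.61, 0.687), Ciita at −0.44 (SE 0.76, 0.805), H2-Ab1 at −0.31 (SE 0.52, 0.804) and H2-Eb1 at 0.08 (SE 0.49, 0.948). The fall of H2-Eb2 in sash lesions is thus not shown to differ from its value in tumours with all libraries. Without wild-type tumour 2 the H2-Eb2 interaction was 3.49 and passed (edgeR adjusted p = 0.0428), and without wild-type tumours 2 and 4 it was 3.59 (0.0390). The tumours left in these fits had 3 to 13 counts of H2-Eb2 per library. A genotype difference in tumours can hardly be seen at such counts, so no genotype effect particular to a stage is read from them.

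**Figure D3:**
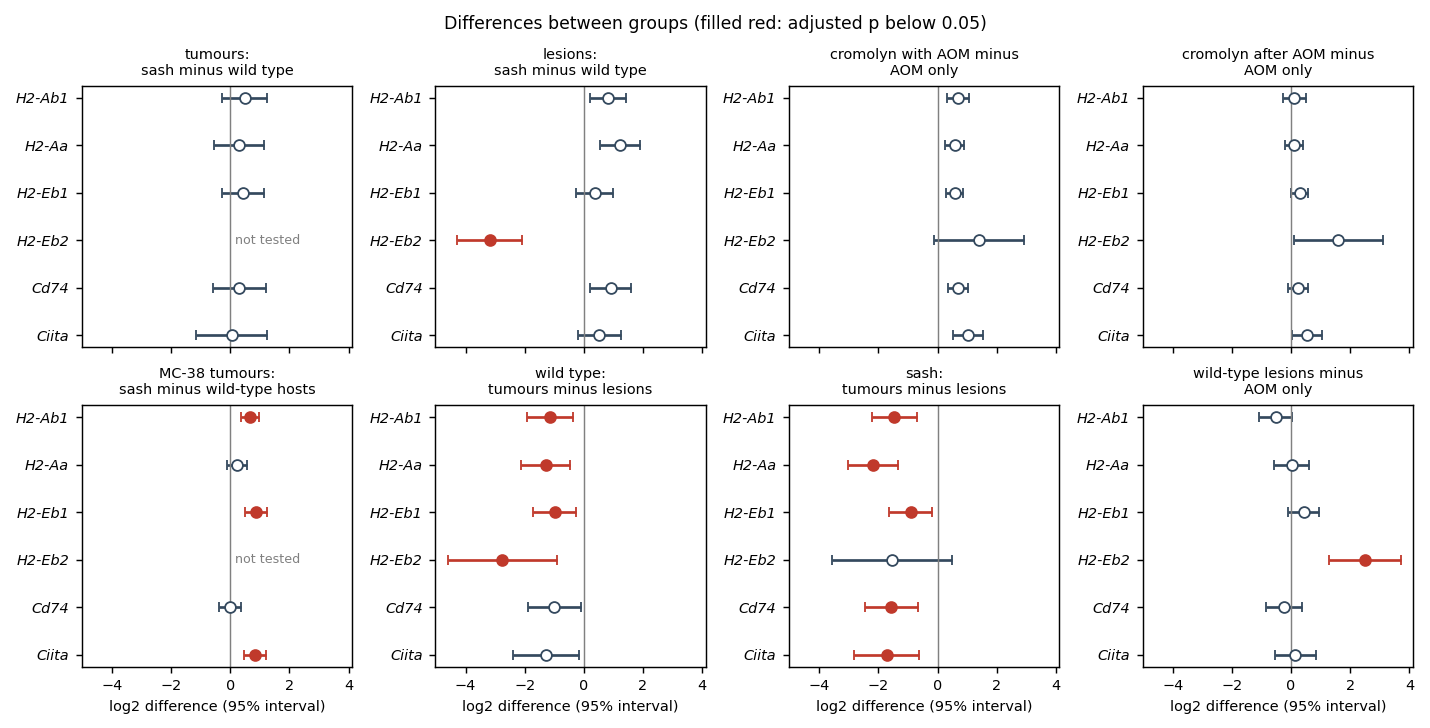
Difference of each gene between groups on the log2 scale (horizontal axis) with 95% intervals, 1 panel per comparison; filled red points have an adjusted p below 0.05 in edgeR. H2-Eb2 in sash against wild-type lesions (−3.19) and the tumours against the lesions stand left of 0, while H2-Ab1, H2-Eb1 and Ciita stand right of 0 in MC-38 tumours of sash hosts.

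In the cromolyn experiment, which asks what a mast cell drug given with or after the carcinogen does to the lesions, 5 of the 6 genes were higher in every library of the group given cromolyn together with AOM than in every library with AOM only, but none passed the test. Ciita had 387, 253 and 286 CPM with cromolyn together with AOM, against 124, 164 and 164 CPM with AOM only. H2-Ab1 had 18890.2, 14593 and 21637 CPM with cromolyn together with AOM, against 13565, 9669 and 10388 CPM with AOM only. Cd74 had 18705, 15135 and 18833 CPM with cromolyn together with AOM, against 10645, 11578 and 9873 CPM with AOM only. For these genes cromolyn library 2 was the lowest of its group and still above all AOM-only libraries. H2-Aa had 7965, 6626 and 8979 CPM with cromolyn together with AOM, against 5533, 4888 and 5152 CPM with AOM only. H2-Eb1 had 2667, 2498 and 2813 CPM with cromolyn together with AOM, against 1944, 1561 and 1777 CPM with AOM only. H2-Eb2 had 149.6, 38.3 and 78.1 CPM with cromolyn together with AOM, against 42.1, 11.3 and 46.6 CPM with AOM only. H2-Eb2 was the gene that overlapped, since cromolyn library 2 lay below 2 of the AOM-only libraries. Of all genes 13.8% lay higher without overlap.

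The differences were 1.02 for Ciita (SE 0.23, adjusted p = 0.0651), 0.70 for Cd74 (SE 0.16, 0.0651), 0.69 for H2-Ab1 (SE 0.18, 0.0747), 0.58 for H2-Aa (SE 0.15, 0.0711), 0.58 for H2-Eb1 (SE 0.14, 0.0651) and 1.40 for H2-Eb2 (SE 0.69, 0.324). In edgeR 2 of 768 genes passed (0.260%), 0 of them members, and 127 had an unadjusted p below 0.05, 5 of them members. The median of the 6 genes was 0.70, beside −0.03 over all genes. With DESeq2, which called 39 genes, 5 members passed: Cd74 (adjusted p = 0.00183), H2-Eb1 and Ciita (0.00742 each), H2-Ab1 and H2-Aa (0.00765 each). The same 5 passed in edgeR with library totals (0.0204 to 0.0397). Without cromolyn library 2 H2-Ab1, H2-Aa, Cd74 and Ciita passed (0.0363 each), and without AOM-only library 1 H2-Ab1 did (0.0429).

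Among the genes around class II, Psmb9, a subunit of the immunoproteasome that makes class I peptides, rose by 1.03 (SE 0.16, adjusted p = 0.0219). The 6 tested class I genes were all above 0 (median 0.35, 1 passed), and 3 of 9 on the interferon gamma route were above 0 (median −0.05, 0 passed). The B cell genes were all above 0 (8 of 8, median 1.78, 0 passed), with summed levels of 2699.9, 632 and 1037 CPM with cromolyn together with AOM and 561, 282 and 438 CPM with AOM only. The T cell genes were also all above 0 (7 of 7, median 0.49, 0 passed), with 446 to 792 CPM and 352 to 517 CPM, and the macrophage and monocyte genes were above 0 in 3 of 8 (median −0.19, 0 passed), with 1415 to 1783 CPM and 1568 to 1785 CPM. The part of these cells in the class II values was not tested.

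When cromolyn was given after AOM, 0 members passed against AOM only, with 4.82% of 768 genes called and 2.34% called higher. Of the members, 2 had an unadjusted p below 0.05 and DESeq2 called 0. Ciita had 169, 213 and 282 CPM with cromolyn after AOM, against 124, 164 and 164 CPM with AOM only. Every cromolyn library was above every AOM-only library by a small margin, and the difference was 0.53 (SE 0.23, adjusted p = 0.211). Ciita was the only member that did not overlap, where 13.8% of all genes lay higher without overlap. H2-Eb2 had 42.8, 81.9 and 181 CPM with cromolyn after AOM and was at 1.60 (SE 0.68, adjusted p = 0.204). H2-Ab1 (0.11, SE 0.18, 0.741), H2-Aa (0.09, SE 0.14, 0.738), H2-Eb1 (0.29, SE 0.14, 0.238) and Cd74 (0.23, SE 0.16, 0.430) were nearer to 0, and the median of the 6 was 0.26. Proteases of the class II compartment fell, Ctss by 0.75 (SE 0.19, adjusted p = 0.0427) and Ctsl by 0.61 (SE 0.16, 0.0427), and Socs1, an inhibitor of interferon signalling, rose by 1.53 (SE 0.37, 0.0411). The B cell genes were all above 0 (8 of 8, median 1.74, 0 passed), with summed levels of 472, 1110.5 and 2397 CPM.

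The timing of cromolyn was compared directly. H2-Ab1 had 11855, 12964 and 12198 CPM with cromolyn after AOM, against 18890.2, 14593 and 21637 CPM with cromolyn together with AOM. The groups did not overlap, and the difference was −0.58 (SE 0.18, adjusted p = 0.331). H2-Aa (−0.49, SE 0.15, 0.331) and H2-Eb1 (−0.29, SE 0.14, 0.567) did not overlap either, so 3 members lay lower without overlap, as did 6.25% of all genes. Cd74 was at −0.47 (SE 0.16, 0.383), Ciita at −0.49 (SE 0.23, 0.567) and H2-Eb2 at 0.20 (SE 0.62, 0.976). In edgeR 0 of 768 genes passed (0% called), 64 had an unadjusted p below 0.05, 3 of them members, and DESeq2 called 6 genes. Scaling to Rpl13a, which moved the median of all genes to 0.41, put H2-Eb1 at 0.13.

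Wild-type lesions and the AOM-only group had the same labelled genotype, age and treatment, and served to show how far samples of 1 description lay apart. H2-Eb2 had 311, 142 and 123 CPM in wild-type lesions, against 42.1, 11.3 and 46.6 CPM with AOM only. Every wild-type lesion was above every AOM-only library, as for 21.1% of all genes, and H2-Eb2 was higher by 2.49 (SE 0.54, adjusted p = 0.0197) on a background of 15.6% of 762 genes called and 8.66% called higher. The difference was of the same order as that between genotypes, in groups with no labelled difference. The call ended with all AOM libraries in 1 fit (adjusted p = 0.0974), without AOM-only library 1 (0.0912) and without AOM-only library 2 (0.0703). The other 5 did not pass: H2-Ab1 was at −0.53 (SE 0.26, 0.183), H2-Eb1 at 0.43 (SE 0.23, 0.221), Cd74 at −0.24 (SE 0.27, 0.566), Ciita at 0.15 (SE 0.31, 0.772) and H2-Aa at 0.02 (SE 0.27, 0.960). Of 8 B cell genes all were above 0 (median 1.86) and 4 passed, Pax5, the B cell identity factor, by 3.12 (SE 0.71, adjusted p = 0.0225) and Ms4a1 by 2.79 (SE 0.56, 0.0154). Their summed level was 867 to 3142 CPM in wild-type lesions and 282 to 561 CPM with AOM only, and its part in the H2-Eb2 difference was not tested.

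In MC-38 tumours H2-Ab1, H2-Eb1 and Ciita rose in sash hosts, while the means of Cd74 lay within 1 SD of each other. H2-Ab1 had 55974, 72404, 53464, 63789 and 63201 CPM in sash hosts, against 40028, 31306, 45727 and 37420.2 CPM in wild-type hosts. H2-Eb1 had 5199, 7864, 6082, 6905 and 5848 CPM in sash hosts, against 3515, 2723, 4503 and 3132 CPM in wild-type hosts. Ciita had 224, 207, 282, 234 and 162 CPM in sash hosts, against 138, 101, 135 and 116 CPM in wild-type hosts. For all of these genes every tumour of a sash host was above every tumour of a wild-type host. H2-Ab1 rose by 0.67 (SE 0.14, adjusted p = 0.0466), H2-Eb1 by 0.87 (SE 0.17, 0.0422) and Ciita by 0.84 (SE 0.17, 0.0422), and the means were 1.60, 1.84 and 1.81 times those in wild-type hosts. These 3 were called on a background of 1.26% of 714 genes in either direction and 0.700% higher, and lay higher without overlap as did 4.62% of all genes.

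Cd74 had 14636, 16978, 16809.6, 16578 and 11189.6 CPM in sash hosts, against 14125, 16738, 18687 and 11265 CPM in wild-type hosts. The groups covered the same range, and the difference was −0.02 (SE 0.17, adjusted p = 0.979). H2-Aa had 5802, 8216, 7055, 7112 and 5825 CPM in sash hosts, against 5419, 5528, 7207 and 4744 CPM in wild-type hosts. H2-Aa overlapped through wild-type host 4 and was at 0.23 (SE 0.16, adjusted p = 0.382), so the alpha and beta chains of I-A were not called alike. H2-Eb2 was not tested, with 23 counts over the sash hosts and 8 over the wild-type hosts, a ratio of 2.77 (95% interval 1.20 to 7.16, counting error only). Without sash host 2 the counts were 14 and 8 and the ratio 2.07 (0.809 to 5.68).

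The 3 calls were close to the threshold. With scaling to Rpl13a they ended (adjusted p = 0.105 for H2-Ab1, 0.0989 for H2-Eb1 and 0.144 for Ciita). When 1 tumour was left out, H2-Ab1 stayed past the threshold only without sash host 4, H2-Eb1 only without wild-type host 4, sash host 1 or sash host 4, and Ciita only without sash host 4 or sash host 6. The adjusted p in the other leave-outs was 0.0526 to 0.129 for H2-Ab1, 0.0628 to 0.122 for H2-Eb1 and 0.0548 to 0.120 for Ciita, and the differences over all 15 alternatives were 0.47 to 0.75, 0.69 to 1.01 and 0.75 to 0.95. DESeq2 called all 3 (0.000981 for H2-Ab1, 0.000316 for H2-Eb1 and 0.00190 for Ciita) among 50 genes.

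The mast cell genes fell in MC-38 tumours of sash hosts, Cpa3, a mast cell protease, by 6.72 (SE 0.38, adjusted p = 8.12e-07), and their summed level was 8.21 to 31.5 CPM in sash hosts and 386 to 1151 CPM in wild-type hosts. The 9 B cell genes summed to 442 to 743 CPM in sash hosts and 706 to 1044 CPM in wild-type hosts, with 3 to 6 of the 9 at 0 in a sash host and 4 to 6 in a wild-type host. Of the 9, 2 were tested, 1 above 0 and 1 below (median 0.09, 0 passed). Cd79a was at 0 in all 9 tumours, and Ms4a1 had 1 count over the sash hosts and 0 over the wild-type hosts. The T cell genes were above 0 in 7 of 7 (median 0.26, 0 passed), with summed levels of 1798 to 3052 CPM in sash hosts and 1696 to 2708 CPM in wild-type hosts. The macrophage and monocyte genes were above 0 in 3 of 8 (median −0.09, 0 passed), with 2726 to 4091 CPM and 2611 to 3335 CPM, and the dendritic cell genes in 2 of 3 (median 0.46, 0 passed), with 126 to 251 CPM and 129.7 to 203 CPM. Of the interferon gamma route 5 of 10 genes were above 0 (median 0.01, 0 passed) and of the loading genes 3 of 5 (median 0.38, 0 passed). The part of these cell types in the class II calls was not tested. The median of the 5 tested members was 0.67, beside −0.01 over all genes.

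**Figure D4:**
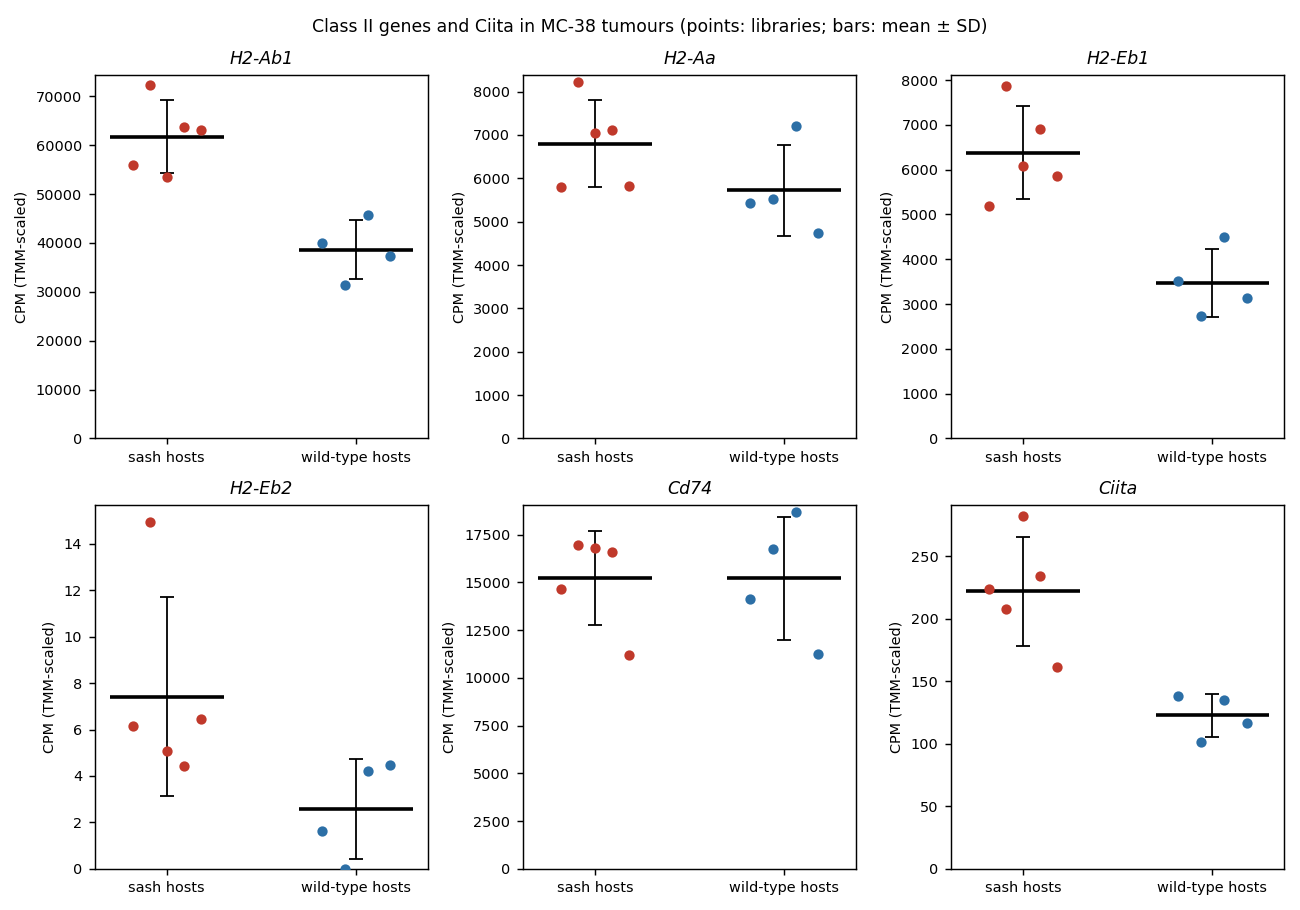
CPM of each of the 6 genes (vertical axis) in MC-38 tumours of sash and wild-type hosts; points are tumours and bars are mean ± SD. H2-Ab1, H2-Eb1 and Ciita separate the hosts without overlap, H2-Aa overlaps, and Cd74 covers 11189.6 to 16978 CPM in sash hosts and 11265 to 18687 CPM in wild-type hosts.

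The balance between the genes was read as a ratio of counts within each library, which no scaling between libraries can change. In the MC-38 tumours the H2-Ab1 to Cd74 ratio was 3.82, 4.26, 3.18, 3.85 and 5.65 in sash hosts, against 2.83, 1.87, 2.45 and 3.32 in wild-type hosts. The H2-Eb1 to Cd74 ratio was 0.355, 0.463, 0.362, 0.417 and 0.523 in sash hosts, against 0.249, 0.163, 0.241 and 0.278 in wild-type hosts. The H2-Eb1 ratio separated the hosts, and for H2-Ab1 sash host 4 lay below wild-type host 5. The Ciita to Cd74 ratio was 0.0153, 0.0122, 0.0168, 0.0141 and 0.0144 in sash hosts, against 0.00976, 0.00603, 0.00723 and 0.0103 in wild-type hosts, again without overlap. Exact two-sided permutation tests gave p = 0.0317 for H2-Ab1 and 0.0159 for H2-Eb1 and Ciita, the smallest p that 5 against 4 tumours allow, and 0.143 each after adjustment over 18 such ratio tests. The same ratios also set the tables apart: H2-Ab1 to Cd74 was 0.667 to 1.27 in the AOM libraries and 1.87 to 5.65 in the MC-38 tumours, and H2-Ab1 to H2-Aa 1.03 to 2.45 and 5.66 to 10.9. Tissue, tumour model and the set of libraries differ between the tables and cannot be told apart.

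Within groups, the genes of the I-A and I-E chains and Cd74 varied together from library to library. With group means removed over the 25 AOM libraries, the log2 levels of H2-Ab1 and Cd74 had Pearson r = 0.92 and Spearman rho = 0.77 (adjusted p = 0.000262 for r, permutation test over 15 pairs). Without wild-type tumours 2 and 3, the libraries farthest from the median, r was 0.86, and it was 0.97 within tumours, 0.91 within lesions and 0.35 within the cromolyn experiment. H2-Ab1 and H2-Aa had r = 0.92 and rho = 0.80 (adjusted permutation p = 0.000540), with 0.85 without the 2 farthest libraries and 0.95, 0.82 and 0.74 within tumours, lesions and the cromolyn experiment. Ciita followed Cd74 (r = 0.84, rho = 0.77, adjusted permutation p = 0.000262, 0.70 without the 2 farthest libraries, 0.85, 0.84 and 0.76 within the sets). It followed H2-Ab1 less evenly (r = 0.71, rho = 0.50, adjusted permutation p = 0.00715, 0.47 without the 2 farthest libraries), with 0.77 and 0.83 within tumours and lesions and −0.05 within the cromolyn experiment.

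For H2-Eb2 the relation to the other chains differed between the measures and the sets of samples. Its r was 0.34 with H2-Ab1 (rho = 0.37, adjusted permutation p = 0.516 for r and 0.129 for rho), 0.48 with H2-Aa (rho = 0.55, 0.276 and 0.0201), 0.31 with H2-Eb1 (rho = 0.41, 0.556 and 0.0816) and 0.38 with Cd74 (rho = 0.30, 0.434 and 0.192). By rank, H2-Aa thus passed. Without the 2 farthest libraries of each pair r was 0.01 with H2-Ab1, 0.13 with H2-Aa, 0.63 with H2-Eb1 and 0.36 with Cd74. The libraries left out differed by pair, and wild-type tumour 2 was kept for H2-Eb1. Without wild-type tumours 2 and 4 r was 0.015 with H2-Ab1, 0.074 with H2-Aa, 0.096 with H2-Eb1 and −0.047 with Cd74. Within tumours, lesions and the cromolyn experiment r was 0.46, 0.73 and 0.75 with H2-Aa, and 0.23, 0.63 and 0.84 with H2-Eb1. The values with H2-Ab1 were 0.33, 0.32 and 0.54, and those with Cd74 0.42, 0.19 and 0.51. With Ciita it had r = 0.70 and rho = 0.55 (adjusted permutation p = 0.0248), 0.48 without wild-type tumours 1 and 2 and 0.30 without wild-type tumours 2 and 4, so this relation rests in part on those libraries. In the MC-38 tumours, where 10 pairs of the 5 tested genes were taken, H2-Ab1 and H2-Eb1 had r = 0.90 (rho = 0.88), H2-Aa and Cd74 r = 0.84 (rho = 0.85) and H2-Aa and H2-Eb1 r = 0.84 (rho = 0.78), each with an adjusted exact permutation p of 0.0498. The last of these was 0.48 without the 2 farthest tumours. H2-Ab1 and Cd74 had r = 0.12 there (rho = 0.25, adjusted exact permutation p = 0.853).

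**Figure D5:**
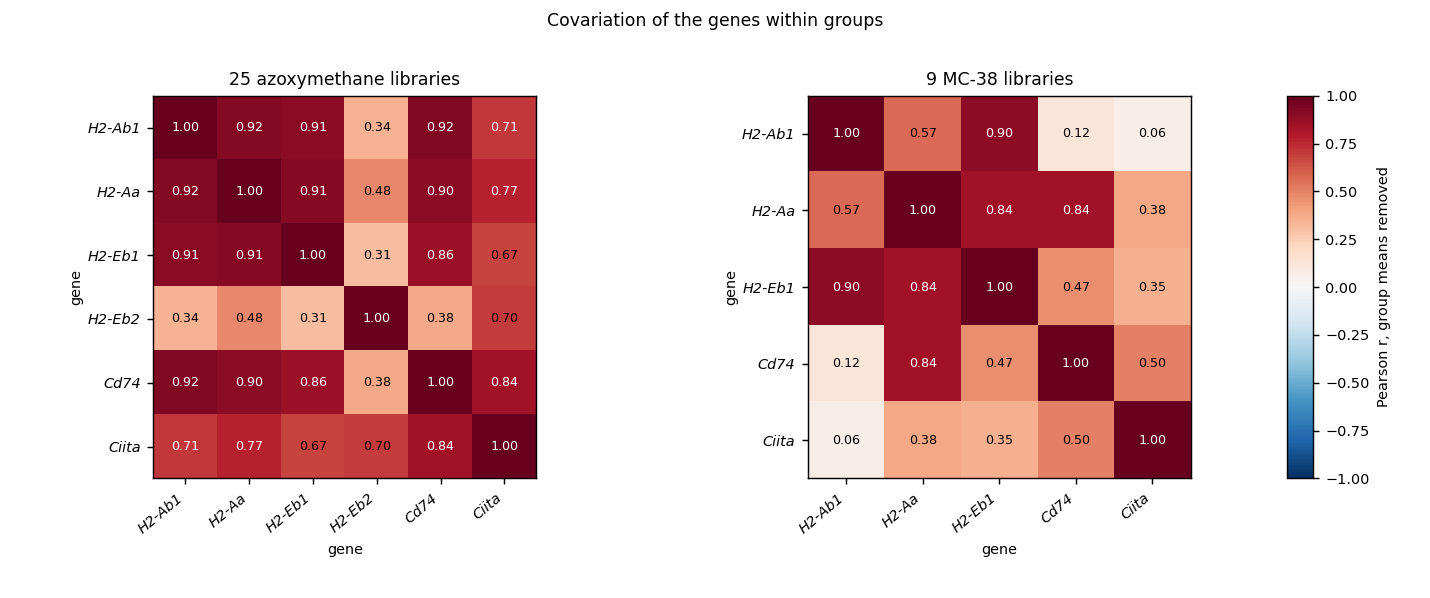
Pearson r of log2(CPM + 1) between the genes, with group means removed, in the 25 AOM libraries and the 9 MC-38 tumours (colour scale from −1 to 1). The H2-Eb2 row is pale against H2-Ab1 (0.34) and H2-Eb1 (0.31) in the AOM libraries, and in the MC-38 tumours H2-Ab1 is near 0 with Cd74 (0.12) and Ciita (0.06).

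The genes outside the 6 whose levels followed each of them most closely were ranked by the same within-group r over the 25 AOM libraries, among 806 genes with a mean of at least 10 counts. As these libraries share depth and tissue, the values are a description. H2-Ab1 was nearest to Foxp3, the factor of regulatory T cells (r = 0.80), Cd3g, a chain of the T cell receptor complex (0.79), and Spn, a surface protein of leukocytes (0.77). H2-Aa was nearest to Cd3g (0.82), Cd3e (0.81) and the B cell surface protein Cd72 (0.81), and H2-Eb1 to Cd3g (0.84), the T cell co-stimulator Icos (0.78) and Cd3e (0.77). Cd74 was nearest to Spn (0.78), Foxp3 (0.77) and Cd247, another chain of the T cell receptor complex (0.75). Ciita was nearest to Cd2 (0.81) and Cd8b1 (0.77), surface proteins of T cells, and to the chemokine Ccl5 (0.74). Without wild-type tumours 2 and 4 these Ciita values were 0.62, 0.61 and 0.51. In that setting the values named for H2-Ab1, H2-Aa, H2-Eb1 and Cd74 were 0.66 to 0.82. H2-Eb2 was nearest to Cr2, a complement receptor of B cells (0.88), the chemokine receptor Ccr6 (0.84) and Ms4a1 (0.83), and these were 0.78, 0.68 and 0.65 without wild-type tumours 2 and 4. Within the cromolyn experiment alone some of these values were low, with r = −0.18 for Ciita and Cd8b1, 0.21 for H2-Ab1 and Cd3g and 0.19 for H2-Ab1 and Spn, while H2-Eb2 had 0.93 with Cr2. Within lesions alone H2-Eb2 had 0.53 with Cr2, 0.77 with Ccr6 and 0.73 with Ms4a1. For the other members the lesion values ran from 0.38 for H2-Eb1 and Cd3e to 0.95 for Cd74 and Spn. Among the genes ranked by likeness to H2-Eb2, Ciita stood at place 16, H2-Aa at 66, Cd74 at 113, H2-Ab1 at 133 and H2-Eb1 at 150.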

How the data were processed

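RNA was measured with a targeted panel (QIAseq Targeted RNA, Mouse Immuno-Oncology) and an Illumina MiSeq (per the labels' protocols). The authors deposited whole-number counts per gene, not normalised, in 1 table of 25 AOM libraries and 1 of 9 MC-38 libraries, each with 988 genes and 5 control entries at 0, which were left out. Per the submitters' processing notes the genome build was mm9 and DESeq2 was used; not given in the sources used here are the aligner, the counter, the strand setting and the counted unit (reads or molecular tags). Intervals on counts therefore cover counting error only. MC-38 wild-type replicate 2 and sash replicate 3 were not analysed here.

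Samples were grouped by the labels. The test was edgeR's quasi-likelihood F test (edgeR 4.0.16, R 4.3.3, TMM scaling, filterByExpr with a minimum count of 10 and a minimum total of 15, robust dispersions, Benjamini-Hochberg adjustment over all genes tested in a comparison), with 0.05 as the limit of the adjusted p. Genotypes were fitted within tumours, within lesions and within MC-38 tumours, the 3 cromolyn groups as 1 set, and for the stages and the interaction all 4 groups of tumours and lesions. Differences are log2 values of the group named first over the other. Levels were CPM computed from the deposited counts, and pairs of genes were correlated as log2(CPM + 1) with 100000 permutations within groups, or exactly for MC-38. Alternatives were DESeq2 1.42.0, other scalings, no filter, all libraries in 1 fit, the replicate number as a block and leaving out each library. A further alternative left out wild-type tumours 2 and 4 together. Wild-type tumour 4 was not among the 2 libraries farthest from the median for any pair of the 6 genes. The fits were also run on simulated data, and the share of changes recovered there is not given here.

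The 6 genes and the 17 gene lists around them were chosen with earlier results of these data known. Named besides the 6 genes are those of a list that passed, at most the 6 with the smallest p, and the 3 genes most like each member; values given for other list genes were picked after they were seen. Same-numbered lesions of both genotypes had r = 0.39, 0.16 and 0.52 over genes. The main fit of the lesions used no pairs, and the replicate number entered only as an alternative. That pairing came from the data and not from the labels. Promoter windows came from a RefSeq table of GRCm38.p6, and transcripts from GENCODE M21, and no coordinate of the counts' own build was used. 1 gene of the lists is not reported here by name.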

Additional observations from a re-analysis of the deposited data

Results flagged for a closer look

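In groups of 4 or 5 libraries, 6 values of the class II genes and Ciita stood far from the rest of their group by Dixon's test, out of 24 combinations of gene and group examined; chance alone marks about 1 in 20 groups. Sash tumour 1 was the highest of the sash tumours for H2-Ab1 (6540.0 CPM), Cd74 (8878 CPM) and Ciita (137.3 CPM), so the same library stood apart for 3 genes. Wild-type tumour 2 was the highest of the wild-type tumours for H2-Eb2 (124 CPM, where the others had at most 7.35 CPM) and Ciita (193 CPM, with at most 54.4 CPM in the others), and its B cell genes summed to 933 CPM. The MC-38 tumour of sash host 2 was the highest of its group for H2-Eb2 at 14.9 CPM, from 9 counts.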

How the results depend on the processing

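Over all alternatives, 765 of the differences of single members between groups kept their direction and their side of the threshold, 29 gained a call, 58 lost one and 33 changed sign. The causes of the changes below were not tested.

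With DESeq2 the number of genes called was 82 in tumours, 70 in lesions (2 members), 39 for cromolyn together with AOM (5 members), 6 for the timing of cromolyn, 50 in MC-38 tumours and 20 for the interaction. Library totals gave 2 genes in tumours, 18 for cromolyn together with AOM (5 members), 3 for the timing and 1 member between stages in wild-type mice. Scaling to Rpl13a, the 1 reference gene on the panel, gave 1 gene for cromolyn together with AOM, 10 for cromolyn after AOM, 4 for the timing, 3 in MC-38 tumours (0 members), 125 between stages in wild-type mice (0 members), 229 in sash mice and 74 for wild-type lesions against AOM only. It put the median of all genes at −0.43 for that last comparison and at 0.41 for the timing. No filter gave 36 genes in lesions (2 members). All AOM libraries in 1 fit gave 88 genes in tumours, 0 members in lesions, 0 genes for cromolyn together with AOM and for cromolyn after AOM, 4 for the interaction and 0 members for wild-type lesions against AOM only. Without wild-type tumours 2 and 4 there were 6 genes in tumours and 8 for the interaction (1 member).

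The labels name no pairs in any comparison, and the samples share only a number. With the replicate number as a block, 84 genes and 3 members passed in lesions, where every same-numbered pair had r over 0.1. The block gave 7 genes for cromolyn together with AOM and 21 for cromolyn after AOM. In MC-38 tumours it gave 3 genes with 0 members (edgeR adjusted p = 0.276 for H2-Ab1, 0.227 for H2-Eb1 and 0.115 for Ciita). It turned Cd74 to 0.13 in MC-38 tumours and H2-Aa to −0.057 for wild-type lesions against AOM only. In the MC-38 tumours the same-numbered pairs had r = 0.26, 0.0047 and 0.64, and not every library correlated best with its own number. In the lesions sash lesion 2 had r = 0.20 with wild-type lesion 1, above 0.16 with its own number.

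Leaving out 1 library gave 0 to 17 genes (0 members) in tumours, 0 to 68 (0 to 2) in lesions, 0 to 15 (0 to 4) for cromolyn together with AOM, 1 to 8 (0) for cromolyn after AOM, 0 to 1 (0) for the timing, 3 to 17 (0 to 3) in MC-38 tumours, 183 to 367 (0 to 6) between stages in wild-type mice, 298 to 389 (4 to 5) in sash mice, 0 to 10 (0 to 1) for the interaction and 11 to 268 (0 to 1) for wild-type lesions against AOM only.

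Values near 0 changed sign. Ciita in tumours was at −0.034 with scaling to Rpl13a and −0.25 to 0.84 in leave-outs, below 0 without sash tumour 1 or wild-type tumour 1, 3, 4 or 5. For the timing of cromolyn H2-Eb1 was at 0.13 with scaling to Rpl13a and H2-Eb2 at −0.49 to 0.82 in leave-outs, with −0.49 without library 3 given cromolyn after AOM and −0.17 without library 2 given it together with AOM. Cd74 in MC-38 tumours was at 0.052 with library totals, 0.0032 with no filter and −0.13 to 0.10 in leave-outs, above 0 without sash host 1 or 6 or wild-type host 3 or 4. The interaction of H2-Eb1 was at −0.0030 with library totals, −0.22 with scaling to Rpl13a and −0.24 to 0.26 in leave-outs, and that of Ciita at −0.77 to 0.34 in leave-outs, with 0.34 without wild-type tumour 2, and 0.27 without wild-type tumours 2 and 4. For wild-type lesions against AOM only, scaling to Rpl13a gave −0.50 for H2-Aa, −0.076 for H2-Eb1 and −0.35 for Ciita. In leave-outs H2-Aa was at −0.37 to 0.24 (below 0 without wild-type lesion 1 or AOM-only library 2), Ciita at −0.15 to 0.39 (below 0 without wild-type lesion 1) and Cd74 at −0.42 to 0.049 (above 0 without wild-type lesion 2). The r of H2-Eb2 and Cd74 was −0.047 without wild-type tumours 2 and 4. The pooled H2-Eb2 ratios without wild-type tumour 2 and sash host 2 were chosen after seeing the data.

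Groups of 3 give few degrees of freedom, and H2-Eb2 with 0 to 23 counts in many libraries is limited by depth. A p that misses the threshold does not show that groups are alike.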

Other observations

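Some single partners and co-stimulators of class II presentation were also called between the stages. They come from lists with 2 CD74 partners, 9 co-stimulators and 8 CD4 and T cell partners on the panel, and do not describe these lists as a whole. Of 848 genes, 47.5% were called in either direction in sash mice and 37.0% in wild-type mice. Cd44, which with CD74 forms a receptor for the cytokine MIF, had 3562 to 7097 CPM in sash tumours against 646 to 1141 CPM in sash lesions, and its log2 rise was 2.39 (SE 0.40, with an adjusted p of 0.000276 in edgeR). In wild-type tumours Cd44 had 1608 to 5973 CPM against 813 to 1356 CPM in wild-type lesions and rose by 1.53 (SE 0.38, 0.00722). Tnfsf9, the 4-1BB ligand of antigen-presenting cells, had 146 to 496 CPM in sash tumours against 31.8 to 40.3 CPM in sash lesions (2.91, SE 0.41, 5.94e-05), and 77.5 to 127 CPM in wild-type tumours against 18.2 to 19.8 CPM in wild-type lesions (2.43, SE 0.41, 0.000525). Against the lesions, 23.9% of 848 genes were called higher in sash mice and 19.5% in wild-type mice, where 17.6% were called lower. Cd80, a co-stimulator read by CD28, rose in sash tumours, with 36.2 to 81.4 CPM against 11.8 to 17.9 CPM in sash lesions (1.88, SE 0.47, 0.00455). Cd4, the T cell protein that binds class II, fell by 1.68 in wild-type mice (SE 0.40, 0.00512), with 10.5 to 28.2 CPM in wild-type tumours against 47.0 to 65.4 CPM in wild-type lesions, and had 14.6 to 27.5 CPM in sash tumours and 14.3 to 29.5 CPM in sash lesions. Age, AOM dose number and tissue differ with the stage here too and cannot be told apart from it.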
